A study of Arabidopsis thaliana with 12 samples.

Results

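The genes described here encode proton pumps of the plasma membrane and the vacuole of Arabidopsis thaliana. They are the plasma membrane pump genes AHA1 (AT2G18960), AHA2 (AT4G30190) and AHA3 (AT5G57350), the vacuolar pyrophosphatase gene AVP1 (AT1G15690), and VHA-A2 (AT2G21410) and VHA-A3 (AT4G39080), which encode forms of subunit a of the vacuolar ATPase. They were chosen by locus identifier, 6 of the 34218 genes in the deposited table, and all 6 passed the filter on low expression. Under salt, AVP1 fell by a fold of 2.18 in wild type and 2.01 in the transgenic line, AHA2 fell in wild type and rose in the transgenic line, and VHA-A2 rose in the transgenic line. Of these changes, only the rise of AHA2 lost its statistical call in some of the alternative fits. VHA-A2 changed in the same direction in wild type without a call (log2 fold change 0.35, edgeR adjusted p = 0.079). Its salt response was not shown to differ between the genotypes.

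Messenger RNA was sequenced from leaves of 14-day-old plants in 4 groups of 3 libraries, biological replicates by the series' design text. Wild type was Col-0, and the second genotype, called the TaF5H1 line below, carried pTaF5H1:TaF5H1, a ferulate 5-hydroxylase gene of wheat under its native promoter. Plants of each genotype were kept for 6 h either in nutrient solution alone, called untreated here, or with 200 mM NaCl. How many independent transformants the line stands for is not given in the sources used here, and the transgene itself was not analysed here.

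Plasma membrane proton ATPases use ATP to export protons, and the resulting gradient drives other transport, including sodium export by the antiporter SOS1. Their carboxy-terminal end holds the pump back until its next-to-last residue, a threonine, is phosphorylated and bound by a 14-3-3 protein. At the vacuolar membrane the V-ATPase, a rotary complex of many subunits, and the pyrophosphatase AVP1 pump protons inwards, which drives the uptake of sodium by NHX antiporters. Subunit a of the V-ATPase sets where the complex resides: VHA-A1 marks the trans-Golgi network, whereas VHA-A2 and VHA-A3 belong to the vacuolar membrane.

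Library totals ran from 17173618 to 21651124 counts, and the members had between 1160 and 30932 counts in a library, so that counting error was at most 2.94% of a value. Replicate 1 of the salt-treated TaF5H1 line was the least like its group: it correlated with the 2 other libraries at 0.931 and 0.935, and these with each other at 0.989, across genes. Replicate 2 of the untreated line had the lowest level of its group for all 6 members. The summed FPKM (fragments scaled to exon length and library total, as deposited) of 6 mesophyll markers was 18955 to 22953 in untreated wild type, 15699 to 16549 in the untreated line, 4767 to 5107 in salt-treated wild type and 624 to 2745 in the salt-treated line. In such bulk leaf samples fewer cells of a type and less RNA per cell cannot be told apart. Of 9 root markers, 8 stayed under 1 FPKM in every library, and the exception, PYK10, rose with salt (log2 fold change 2.79 ± 0.42 in wild type, edgeR adjusted p = 0.00017, and 3.70 ± 0.41 in the line, edgeR adjusted p = 1.5e-05). The part of these shifts in the results on the pumps was not tested.

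Fold changes below are log2 values ± SE from edgeR's quasi-likelihood test on the counts of all 12 libraries, adjusted over the 17038 genes tested, and a gene was called at an adjusted p under 0.05. Many genes passed: in wild type 53.8% of all tested genes were called under salt (27.1% up and 26.7% down), and in the TaF5H1 line 64.8% (31.4% up and 33.5% down). Between genotypes 13.9% were called without salt (7.34% higher and 6.58% lower in the line) and 34.6% under salt (15.6% higher and 19.0% lower). The interaction, the line's salt change less the change in wild type, was called for 5.88% of genes (2.92% up and 2.95% down). Of the members, 2 of 6 fell and 0 rose with salt in wild type, and 2 rose and 1 fell in the line. Without salt 2 were lower in the line, under salt 1 was higher in it, and 1 had an interaction. The main fit also scaled each library by a TMM factor, which FPKM does not carry. Overlaps and gaps in FPKM below are therefore on another scale than the fitted changes. A scaling by library totals alone moved the median of all genes from -0.02 to -0.22 for salt in wild type. In the line that median moved from -0.05 to -0.31. The share of calls that were rises then changed from 50.4% to 36.8% in wild type and from 48.4% to 34.9% in the line. It changed from 52.7% to 66.4% for the genotypes without salt and from 49.8% to 32.8% for the interaction.

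**Figure D1:**
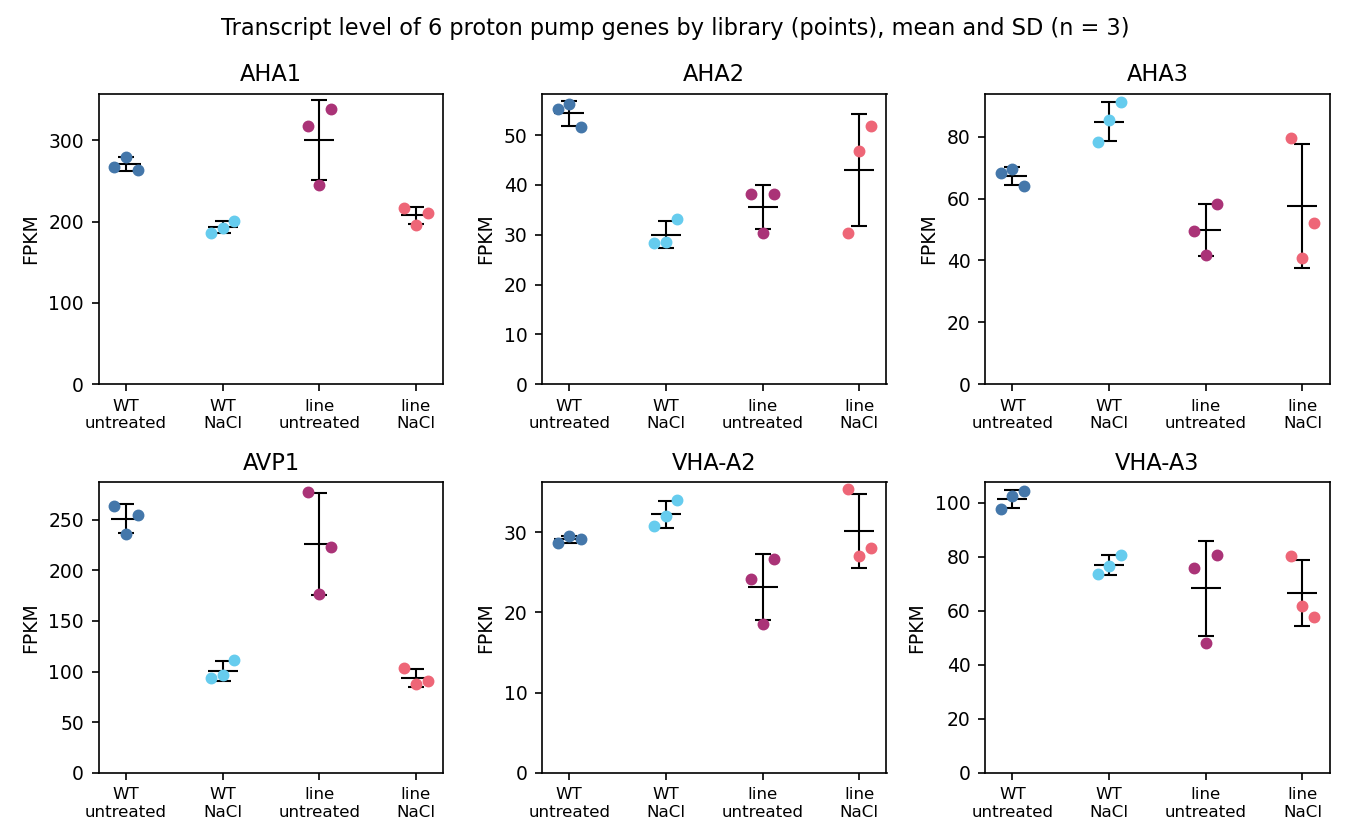
Transcript level in FPKM (linear axes from 0) of the 6 proton pump genes in the 12 libraries, with points for libraries and bars for the mean and SD of 3 libraries per group. AVP1 lay between 87.5 and 112 FPKM in all 6 salt-treated libraries and at 177 FPKM or more in all 6 untreated ones.

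**Figure D2:**
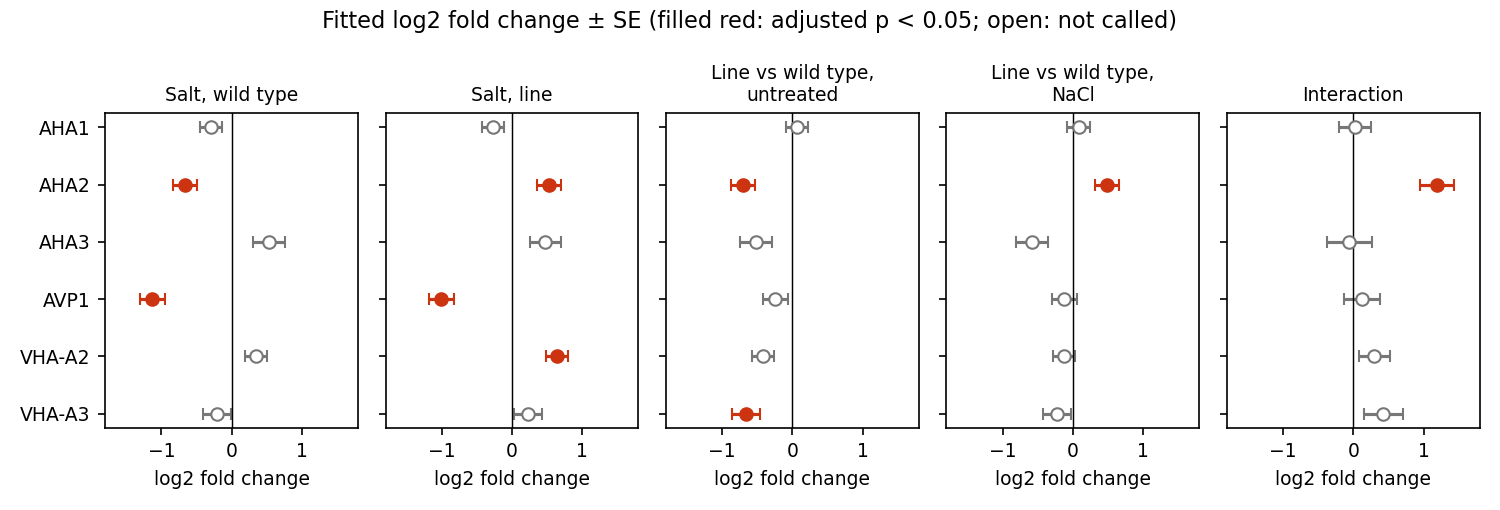
Fitted log2 fold change ± SE of each proton pump gene in the 5 comparisons, on linear axes, with filled red points at an edgeR adjusted p under 0.05. AHA2 is the gene with a call in every panel, with -0.66 for salt in wild type and 0.53 in the line.

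The 3 plasma membrane pump genes code for closely related proteins. Over aligned residues of the longest RefSeq proteins, AHA1 and AHA2 were 94.51% identical, AHA1 and AHA3 87.97%, and AHA2 and AHA3 88.5%. Their transcripts are still distinct: of all 50-base words in the exons, 0.105% for AHA1, 0.132% for AHA2 and 0 for AHA3 occurred elsewhere in the genome. The last 60 coding bases, through the stop codon, are shown for these genes and AHA11 because they encode the end that 14-3-3 proteins bind, with the next-to-last codon in capitals. They lie on TAIR10.1 (RefSeq) at chr2:8227209-8227268 (plus strand) for AHA1, chr4:14770820-14770879 (minus) for AHA2, chr5:23231208-23231267 (minus) for AHA3 and chr5:25164898-25164957 (plus) for AHA11.
AHA1: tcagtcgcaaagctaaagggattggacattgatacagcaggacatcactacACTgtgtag
AHA2: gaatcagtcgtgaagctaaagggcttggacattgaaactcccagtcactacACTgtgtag
AHA3: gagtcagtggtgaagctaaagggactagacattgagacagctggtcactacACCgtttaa
AHA11: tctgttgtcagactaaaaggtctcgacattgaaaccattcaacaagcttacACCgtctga
The next-to-last codon is a threonine codon in all 11 AHA genes. Whether 14-3-3 proteins bind the end of each pump was not tested.

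AHA1 (chromosome 2, 8221514 to 8227622, plus strand), one of the pair of pumps that carry most proton export in Arabidopsis, had the highest mean of the 6 members in every group. Untreated wild type had 268, 280 and 264 FPKM in replicates 1, 2 and 3, and salt-treated wild type 186, 192 and 201. The untreated line had 318, 244 and 338 FPKM, and the salt-treated line 217, 196 and 211. In each genotype all salt-treated libraries lay below all untreated ones in FPKM, whereas the genotypes overlapped under either treatment. The TMM factors of the fit were 1.11 to 1.126 in the untreated and 0.899 to 0.955 in the salt-treated line. Dividing by them narrows the gap that FPKM shows, so the gap is not separate evidence of a fall. The fitted salt change was -0.29 ± 0.16 in wild type (edgeR adjusted p = 0.14) and -0.27 ± 0.16 in the line (edgeR adjusted p = 0.16), and neither was called. Both were called with library totals alone, at -0.49 in wild type (edgeR adjusted p = 0.019) and -0.53 in the line (edgeR adjusted p = 0.01). With the main scaling, the change in wild type was called without replicate 1 of the salt-treated line (-0.32, edgeR adjusted p = 0.041) and in the fit of only the 2 groups compared (-0.28, edgeR adjusted p = 0.0096), and that in the line without replicate 2 of the untreated line (-0.40, edgeR adjusted p = 0.03). The line differed from wild type by 0.06 ± 0.16 without salt (edgeR adjusted p = 0.83) and by 0.08 ± 0.16 under salt (edgeR adjusted p = 0.72). The interaction of 0.02 ± 0.22 (edgeR adjusted p = 0.96) changed sign with library totals alone and with limma on FPKM, without a call.

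AHA2 (chromosome 4, 14770395 to 14776247, minus strand), the close partner of AHA1 and best known from roots, was the member whose salt response differed between the genotypes. Untreated wild type had 55.3, 56.3 and 51.6 FPKM, and salt-treated wild type 28.3, 28.6 and 33.3. The untreated line had 38.1, 30.4 and 38.1 FPKM, and the salt-treated line 30.4, 46.9 and 51.8. In FPKM every salt-treated wild type library lay below every untreated one. In the line, replicate 1 with salt lay at the level of the lowest untreated library in FPKM. The other salt-treated libraries of the line lay above all its untreated ones. The TMM factors of the fit (0.899 for that replicate 1, 1.11 to 1.126 in the untreated line) place replicate 1 higher against the untreated line than FPKM does. AHA2 fell in wild type by 0.66 ± 0.17 on the log2 scale (edgeR adjusted p = 0.0067) and rose in the line by 0.53 ± 0.17 (edgeR adjusted p = 0.017). The interaction was 1.19 ± 0.24 (edgeR adjusted p = 0.023). Without salt AHA2 was lower in the line than in wild type (log2 fold change -0.70 ± 0.17, edgeR adjusted p = 0.019), with no overlap between libraries. Under salt it was higher in the line (0.48 ± 0.17, edgeR adjusted p = 0.047), where the libraries overlapped.

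Of these AHA2 calls, the fall in wild type held in all alternatives run, and the others did not. With replicate 1 of the salt-treated line left out, the rise in the line was 0.73 (edgeR adjusted p = 0.00021), the difference under salt 0.71 (edgeR adjusted p = 0.00045) and the interaction 1.41 (edgeR adjusted p = 4.8e-05). The rise in the line was not called with library totals alone (0.27, edgeR adjusted p = 0.21). It also lost its call without replicate 2 of the untreated line (0.42) and without replicate 2 (0.47) or replicate 3 (0.40) of the salt-treated line. The interaction lost its call in 8 of the 12 fits that left out a library, with values from 1.05 to 1.41 and a highest edgeR adjusted p of 0.075. The difference under salt lost its call in 10 of the 12, with values from 0.35 to 0.71. The difference without salt lost its call in 4 of the 12, with values from -0.76 to -0.60.

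AHA3 (chromosome 5, 23230874 to 23236682, minus strand) is the plasma membrane pump of phloem companion cells. Untreated wild type had 68.1, 69.6 and 64.2 FPKM, and salt-treated wild type 78.3, 85.3 and 91.1. The untreated line had 49.4, 41.7 and 58.4 FPKM, and the salt-treated line 79.6, 40.8 and 52.1. Salt-treated wild type lay above untreated wild type in every library, the untreated line lay below untreated wild type in every library, and replicate 1 of the salt-treated line lay far above its fellows. No change of AHA3 was called: salt gave 0.53 ± 0.23 in wild type (edgeR adjusted p = 0.065) and 0.48 ± 0.23 in the line (edgeR adjusted p = 0.083), and the line stood at -0.52 ± 0.23 against wild type without salt (edgeR adjusted p = 0.14) and at -0.58 ± 0.23 under salt (edgeR adjusted p = 0.066). With replicate 1 of the salt-treated line left out, 3 of these 4 were called: salt in wild type at 0.51 (edgeR adjusted p = 0.0056), the genotypes without salt at -0.52 (edgeR adjusted p = 0.012) and under salt at -0.87 (edgeR adjusted p = 0.00041). The salt change in the line was then 0.15 (edgeR adjusted p = 0.38). With replicate 2 of the salt-treated line left out instead, AHA3 was called with salt in the line (0.68, edgeR adjusted p = 0.015) and in wild type (0.54, edgeR adjusted p = 0.031). The fit of only the 2 groups compared also called salt in wild type (0.54, edgeR adjusted p = 0.00035) and the genotypes without salt (-0.51, edgeR adjusted p = 0.032). The interaction was -0.06 ± 0.32 (edgeR adjusted p = 0.93), and it became positive in 3 fits that left out a library of the line.

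The companion cell marker SUC2, a sucrose carrier, was lower in the line, by a log2 fold change of -0.97 ± 0.19 without salt (edgeR adjusted p = 0.0076) and -0.68 ± 0.19 under salt (edgeR adjusted p = 0.02). Over all 5 phloem markers the summed level was 298 to 366 FPKM in untreated and 231 to 268 in salt-treated wild type, against 245 to 281 in the untreated and 144 to 198 in the salt-treated line. Of these markers, 2 of 5 were lower in the line without salt and 3 of 5 under salt, where 6.58% and 19.0% of all tested genes were lower. Of the same markers 0 were higher. Their part in the levels of AHA3 was not tested.

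The other 8 AHA genes were mostly weakly expressed, and 4 of them passed the filter. By edgeR 0 of 4 were called for salt in wild type, the untreated genotypes or the interaction, also 0 at an unadjusted p under 0.05 and 0 by DESeq2. By limma on log2(FPKM + 1), 1 of 4 was called for salt in wild type. AHA11 (AT5G62670) was the abundant one, with 68.1, 77.7 and 71.5 FPKM in untreated wild type and 29.8, 32.1 and 37.1 under salt. The line had 40.4, 31.1 and 50.9 FPKM without salt and 25.2, 5.18 and 5.27 with it. AHA11 fell with salt in the line by 1.495 ± 0.51 on the log2 scale (edgeR adjusted p = 0.022), and under salt it was lower in the line than in wild type (-1.48 ± 0.51, edgeR adjusted p = 0.043), a call kept in 8 of 20 alternatives. In wild type its salt change of -0.94 ± 0.50 was not called (edgeR adjusted p = 0.13), although the libraries did not overlap. The interaction was -0.56 ± 0.70 (edgeR adjusted p = 0.63) and was called in 1 of 19 alternatives, with values from -1.75 to -0.19. Without replicate 1 of the salt-treated line the salt change was -0.96 in wild type (edgeR adjusted p = 0.00013) and -2.71 in the line (edgeR adjusted p = 5.4e-08), and it is this fit that called the interaction (-1.75, edgeR adjusted p = 0.00011).

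The make-up of the plasma membrane pump transcripts is given as shares, with no test. Summed FPKM over the 11 AHA genes was 476 ± 17.7 (SD, n = 3) in untreated and 351 ± 21.8 in salt-treated wild type, and 438 ± 70.4 in the untreated and 331 ± 31.0 in the salt-treated line. AHA1 made up 56.9% ± 0.326 and 55.1% ± 1.27 of it in untreated and salt-treated wild type, and 68.5% ± 0.968 and 63.0% ± 2.82 in the line. AHA11 made up 15.2% ± 0.642 and 9.40% ± 0.479 in wild type, and 9.24% ± 0.874 and 3.42% ± 3.06 in the line. AHA3 made up 14.2% ± 0.314 and 24.2% ± 0.491 in wild type, and 11.4% ± 0.496 and 17.1% ± 4.38 in the line. AHA2 made up 11.4% ± 0.307 and 8.56% ± 0.313 in wild type, and 8.15% ± 0.426 and 13.2% ± 4.16 in the line. In untreated plants the AHA1 share was at least 67.9% in every library of the line and at most 57.1% in every library of wild type.

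**Figure D3:**
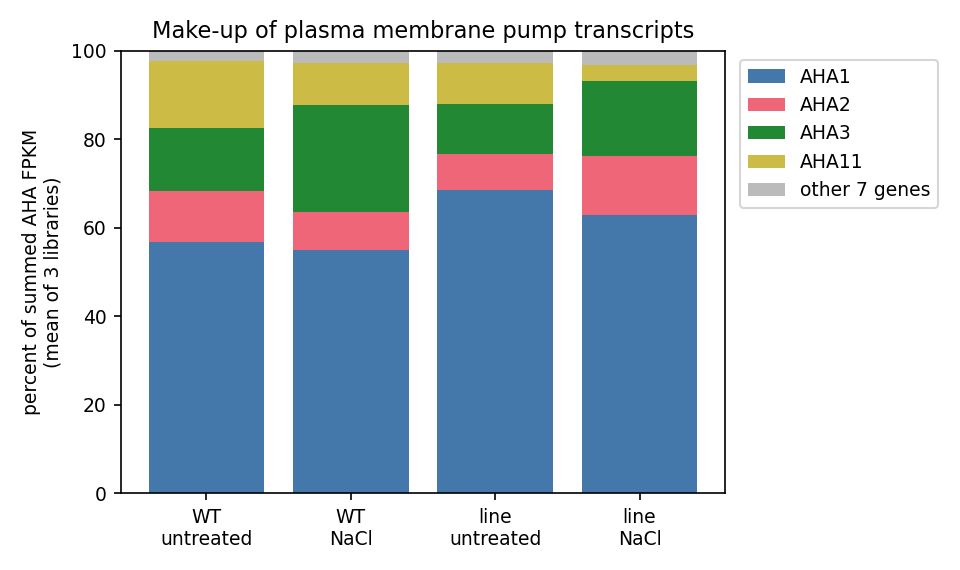
Percent of the summed FPKM of the 11 AHA genes that each gene made up, as stacked bars from 0 to 100 with the mean of 3 libraries per group. AHA1 makes up 56.9% in untreated wild type and 68.5% in the untreated line, and AHA11 goes from 15.2% to 3.42% between untreated wild type and the salt-treated line.

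AVP1 (chromosome 1, 5398926 to 5402733, plus strand), the vacuolar pyrophosphatase that acidifies the vacuole with the energy of pyrophosphate, had the strongest salt response of the 6 members. Untreated wild type had 263, 236 and 255 FPKM, and salt-treated wild type 93.4, 96.2 and 112. The untreated line had 278, 177 and 223 FPKM, and the salt-treated line 104, 87.5 and 90.5. Every salt-treated library lay below every untreated library of either genotype. AVP1 fell in wild type by 1.13 ± 0.18 on the log2 scale (edgeR adjusted p = 0.00027), a fold of 2.18. In the line AVP1 fell by 1.0045 ± 0.18 (edgeR adjusted p = 0.00045), a fold of 2.01. Both calls held in all 20 alternatives run, with values from -1.18 to -1.07 in wild type and from -1.16 to -0.83 in the line when a library was left out. The line did not differ from wild type beyond the threshold, with -0.24 ± 0.18 without salt (edgeR adjusted p = 0.39), -0.12 ± 0.18 under salt (edgeR adjusted p = 0.63) and an interaction of 0.12 ± 0.25 (edgeR adjusted p = 0.78), which was -0.03 without replicate 2 of the untreated line. With a library left out, the difference without salt ranged from -0.42 (without replicate 1 of the untreated line) to -0.09 (without replicate 2), and that under salt from -0.18 to -0.06.

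The promoters of the members were searched for ACGTG, the core of the abscisic acid response element, and CCGAC, the core of the dehydration-responsive element, on both strands, where ACGTG can overlap its own reverse complement. Of the 6 members, 1 promoter (250 bases before to 50 after the annotated start) held either motif, that of AVP1, with 1 ACGTG and 2 CCGAC matches. Of 27443 promoters of the same length, 26.7% held ACGTG and 15.0% CCGAC. The 250 bases before the start are shown for AVP1, which fell with salt, and for VHA-E3, the V-ATPase gene with the largest rise among those listed, since both hold an ACGTG match (on the minus strand in AVP1, as CACGT). They lie on TAIR10.1 (RefSeq) at chr1:5398676-5398925 (plus strand) and chr1:23830101-23830350 (minus strand), and the matches are in capitals.
AVP1: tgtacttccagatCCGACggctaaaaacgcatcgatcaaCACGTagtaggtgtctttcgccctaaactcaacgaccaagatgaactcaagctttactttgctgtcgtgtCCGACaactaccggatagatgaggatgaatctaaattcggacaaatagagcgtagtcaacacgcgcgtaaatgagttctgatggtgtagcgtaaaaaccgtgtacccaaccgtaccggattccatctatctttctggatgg
VHA-E3: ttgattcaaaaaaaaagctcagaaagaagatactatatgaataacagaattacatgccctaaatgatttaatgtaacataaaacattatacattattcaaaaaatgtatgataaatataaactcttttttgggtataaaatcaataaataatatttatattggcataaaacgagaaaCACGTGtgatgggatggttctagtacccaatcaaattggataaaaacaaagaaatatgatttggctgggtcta
Among the promoters of the 26 other V-ATPase genes 14 held ACGTG and 4 held CCGAC. A match describes the letters and is not a binding site.

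VHA-A2 (chromosome 2, 9162516 to 9168556, plus strand) and VHA-A3 (chromosome 4, 18209399 to 18215204, plus strand) encode the forms of subunit a that hold the V-ATPase at the vacuolar membrane, and their proteins were 90.12% identical. VHA-A2 was the less abundant, with 28.7, 29.5 and 29.2 FPKM in untreated and 30.8, 32.0 and 34.1 in salt-treated wild type. The line had 24.2, 18.6 and 26.7 FPKM without salt and 35.4, 27.0 and 28.1 with it. In each genotype every salt-treated library lay above every untreated one, and the untreated line lay below untreated wild type. VHA-A2 rose in the line by 0.64 ± 0.16 on the log2 scale (edgeR adjusted p = 0.0035), a call that held in all alternatives run. In wild type its salt change was 0.35 ± 0.16 (edgeR adjusted p = 0.079), which was called in the fit of only the 2 groups compared (0.36, edgeR adjusted p = 0.0024) and without replicate 1 of the salt-treated line (0.32, edgeR adjusted p = 0.041). The interaction was 0.30 ± 0.22 (edgeR adjusted p = 0.40), so a difference between the 2 responses was not shown. The line stood at -0.42 ± 0.16 against wild type without salt (edgeR adjusted p = 0.097), called at -0.42 without replicate 1 of the salt-treated line (edgeR adjusted p = 0.025), and at -0.12 ± 0.16 under salt (edgeR adjusted p = 0.57).

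VHA-A3 had 97.8, 102 and 104 FPKM in untreated and 73.6, 76.5 and 80.7 in salt-treated wild type. The line had 76.0, 48.1 and 80.8 FPKM without salt and 80.4, 61.6 and 57.6 with it. In wild type the treatments did not overlap in FPKM, in the line they did, and the untreated line lay below untreated wild type in every library. VHA-A3 was lower in the line without salt (log2 fold change -0.66 ± 0.20, edgeR adjusted p = 0.048). That call lay at the threshold: it was lost in 9 of the 12 fits that left out a library, with values from -0.80 to -0.46. Under salt the line stood at -0.23 ± 0.20 (edgeR adjusted p = 0.39). The salt change was -0.20 ± 0.20 in wild type (edgeR adjusted p = 0.42) and 0.23 ± 0.20 in the line (edgeR adjusted p = 0.33), and the sign in the line turned with library totals alone (-0.04) and limma on FPKM (-0.02). The interaction was 0.43 ± 0.28 (edgeR adjusted p = 0.34).

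The other subunits of the V-ATPase mostly rose with salt. Of 26 listed genes 24 were tested, and in wild type 15 rose and 0 fell, where 27.1% of all tested genes rose and 26.7% fell. The median log2 fold change was 0.40 against -0.02 over all genes tested. In the line the counts were 20 and 0, where 31.4% of all rose and 33.5% fell, and the median was 0.61 where all genes had -0.05. VHA-E3, a form of the peripheral stalk subunit E, went from 26.7 ± 3.75 to 167 ± 13.6 FPKM in wild type (SD, n = 3) and from 28.4 ± 5.40 to 119 ± 21.8 in the line. It rose by 2.84 ± 0.20 on the log2 scale in wild type (edgeR adjusted p = 5.6e-07) and by 2.34 ± 0.20 in the line (edgeR adjusted p = 1.7e-06). VHA-D, the central shaft of the rotor, rose by 1.38 ± 0.12 in wild type (edgeR adjusted p = 2.5e-06) and by 1.41 ± 0.12 in the line (edgeR adjusted p = 1.7e-06). The proteolipid gene VHA-c"2 rose by 0.90 ± 0.11 in wild type (edgeR adjusted p = 3.7e-05), and VHA-F, of the central stalk, by 0.96 ± 0.11 in the line (edgeR adjusted p = 2.3e-05). The count in wild type dropped to 8 with library totals alone, to 8 and 7 with limma on log2(FPKM + 1) and log2(FPKM + 0.1), and to 8 without replicate 2 of salt-treated wild type.

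VHA-A1, the subunit a of the trans-Golgi network, was less abundant than both vacuolar forms. It had 11.0, 11.2 and 10.12 FPKM in untreated and 10.8, 12.4 and 14.1 in salt-treated wild type, and 10.2, 8.29 and 11.6 in the untreated and 14.9, 16.01 and 14.4 in the salt-treated line. It rose in wild type by 0.41 ± 0.14 on the log2 scale (edgeR adjusted p = 0.027), where the libraries overlapped in FPKM. In the line it rose by 0.85 ± 0.14 (edgeR adjusted p = 0.00025), without overlap in FPKM. The TMM factors of the fit in wild type were 1.043 to 1.062 untreated and 0.897 to 0.941 with salt. Dividing by them moves the treatments further apart than FPKM shows. The rise in wild type was called in 12 of 20 alternatives, with values from 0.19 to 0.47. Between genotypes it gave -0.19 ± 0.14 without salt (edgeR adjusted p = 0.39) and 0.25 ± 0.14 under salt (edgeR adjusted p = 0.18), with an interaction of 0.44 ± 0.20 (edgeR adjusted p = 0.17).

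Between genotypes without salt, 1 of 24 V-ATPase genes was higher and 2 were lower in the line, where 13.9% of all tested genes were called: the proteolipid genes VHA-c4 (0.50 ± 0.15, edgeR adjusted p = 0.048) and VHA-c5 (-0.38 ± 0.10, edgeR adjusted p = 0.028), and VHA-B2 of the catalytic head (-0.50 ± 0.15, edgeR adjusted p = 0.047). Each of the 3 was called in at most 8 of 20 alternatives. Under salt and for the interaction 0 of 24 were called by edgeR, against 34.6% and 5.88% of all tested genes, with 2 and 4 at an unadjusted p under 0.05 and 0 and 2 called by DESeq2. Without replicate 1 of the salt-treated line, or with another setting, the count reached at most 5 under salt and 3 for the interaction.

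**Figure D4:**
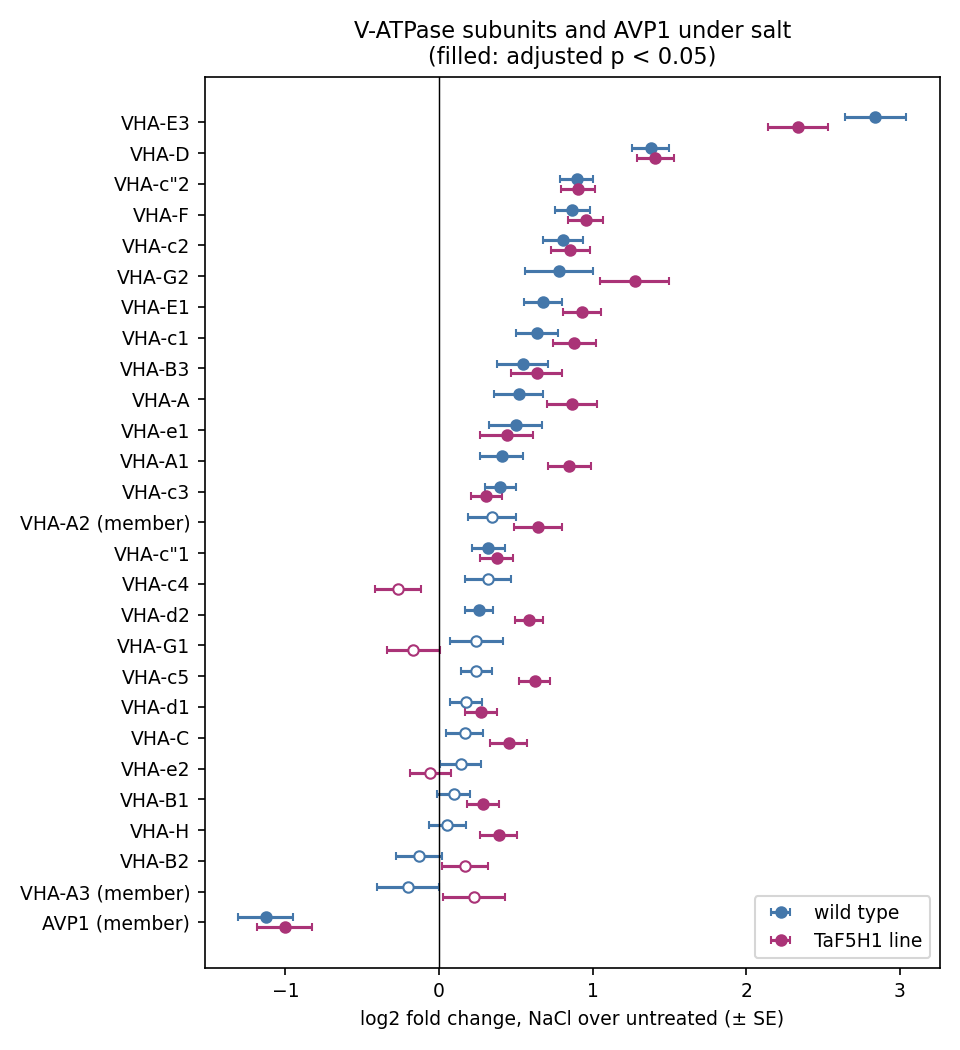
Log2 fold change with salt ± SE of AVP1, VHA-A2, VHA-A3 and the 24 other tested V-ATPase genes, on a linear axis, with wild type in blue and the TaF5H1 line in purple and filled points at an edgeR adjusted p under 0.05. VHA-E3 lies at 2.84 and 2.34, and AVP1 at -1.13 and -1.0045.

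Ratios within a library do not depend on the scaling between libraries, so they were compared directly. The ratio of AVP1 to the sum of VHA-A2 and VHA-A3 in FPKM was 1.93 ± 0.148 (SD, n = 3) in untreated and 0.918 ± 0.0475 in salt-treated wild type, and 2.50 ± 0.371 in the untreated and 0.980 ± 0.0800 in the salt-treated line. It fell by 1.21 on the log2 scale with salt over both genotypes (exact two-sided permutation of treatment within genotype, p = 0.005, the smallest the 400 arrangements allow, adjusted p = 0.01 over 6 tests). It was higher in the line by 0.23 (exact permutation p = 0.02, adjusted p = 0.03), a call lost in 7 of the 12 sets with a library left out. VHA-A3 over VHA-A2 was 3.49 ± 0.0855 in untreated and 2.39 ± 0.0155 in salt-treated wild type, and 2.92 ± 0.292 and 2.20 ± 0.129 in the line. It fell by 0.47 with salt (exact permutation p = 0.005, adjusted p = 0.01) and was lower in the line (-0.19, exact permutation p = 0.005, adjusted p = 0.01), and both calls held whichever library was left out. The vacuolar subunit a transcripts thus shifted towards VHA-A2 under salt and in the line.

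AHA2 over AHA1 was 0.201 ± 0.00556 in untreated and 0.156 ± 0.00867 in salt-treated wild type, and 0.119 ± 0.00587 in the untreated and 0.208 ± 0.0588 in the salt-treated line. Over both genotypes the salt difference was 0.20 on the log2 scale (exact permutation adjusted p = 0.4), and over both treatments the genotype difference was -0.19 (exact permutation adjusted p = 0.354). A test of the interaction, with genotype permuted within treatment, was added after these values were seen. Its p-values assume no genotype difference under either treatment, so they do not test the interaction alone. For AHA2 over AHA1 the interaction was 1.13 (exact permutation p = 0.02, adjusted p = 0.06 over 3 ratios). Without replicate 1 of the salt-treated line it was 1.40 (exact permutation adjusted p = 0.015). The interaction was 0.15 for VHA-A3 over VHA-A2 and -0.28 for AVP1 over the vacuolar subunits a (exact permutation adjusted p = 0.405 for each).

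**Figure D5:**
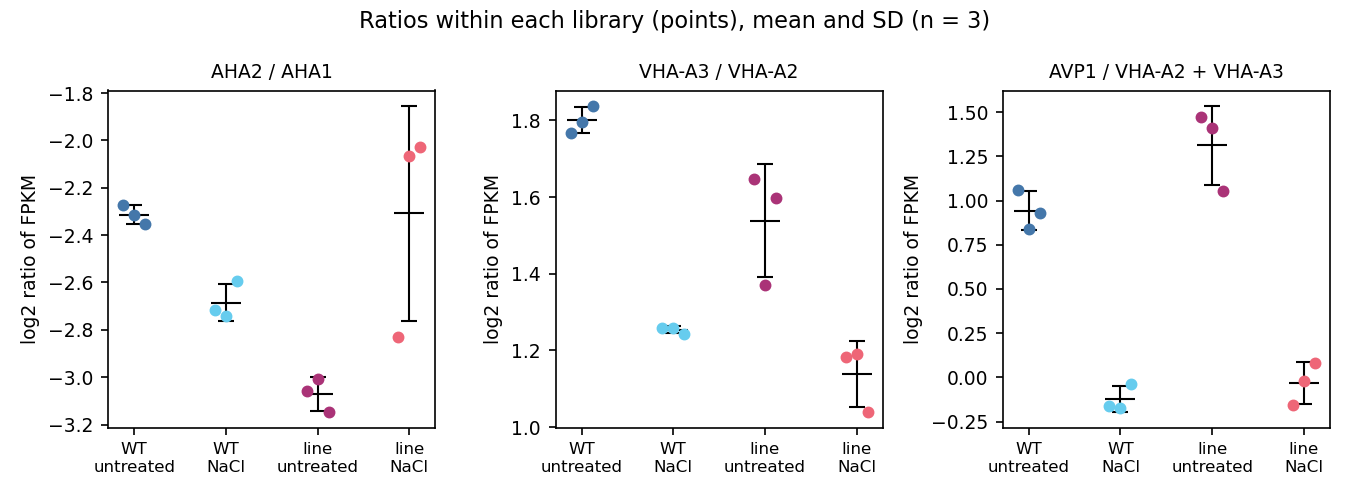
Log2 ratios of FPKM within each library for AHA2 over AHA1, VHA-A3 over VHA-A2, and AVP1 over VHA-A2 plus VHA-A3, with points for libraries and bars for the mean and SD of 3 libraries per group (the axes do not start at 0). AVP1 over the vacuolar subunits a has mean log2 ratios of 0.94 and 1.31 in the untreated groups and of -0.13 and -0.03 under salt.

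Per exon length, the order of the members in untreated wild type was AHA1, AVP1, VHA-A3, AHA3, AHA2 and VHA-A2, with means of 270 ± 8.47, 251 ± 14.0, 101 ± 3.35, 67.3 ± 2.79, 54.4 ± 2.48 and 29.1 ± 0.392 FPKM. No neighbours in that order overlapped between libraries. The untreated line had the same order, at 300.0 ± 49.2, 226 ± 50.4, 68.3 ± 17.6, 49.8 ± 8.35, 35.5 ± 4.46 and 23.2 ± 4.14 FPKM, but AHA1 overlapped AVP1 and VHA-A3 overlapped AHA3. Salt-treated wild type had AHA1 at 193 ± 7.49, AVP1 at 100.4 ± 9.81, AHA3 at 84.9 ± 6.39, VHA-A3 at 76.9 ± 3.53, VHA-A2 at 32.3 ± 1.68 and AHA2 at 30.1 ± 2.77 FPKM. There AHA3 overlapped VHA-A3, and VHA-A2 overlapped AHA2, which was last in this group alone. In the salt-treated line AHA1 was at 208 ± 10.6 and AVP1 at 93.9 ± 8.75 FPKM, and VHA-A3 (66.6 ± 12.2), AHA3 (57.5 ± 19.98), AHA2 (43.0 ± 11.2) and VHA-A2 (30.2 ± 4.60) each overlapped the next.

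Among the genes that act on these pumps are the 14-3-3 genes (named GRF). Of 11 tested, 5 rose and 0 fell with salt in wild type (median 0.28), where 27.1% of all tested genes rose, and 7 rose and 1 fell in the line (median 0.74), where 31.4% of all rose. In wild type 3 to 9 of them were called over the settings run. GRF3 rose by 0.87 ± 0.12 on the log2 scale in wild type (edgeR adjusted p = 8.2e-05) and by 1.17 ± 0.12 in the line (edgeR adjusted p = 6.9e-06). GRF5 rose by 0.60 ± 0.10 (edgeR adjusted p = 0.00043) and GRF10 by 0.58 ± 0.14 (edgeR adjusted p = 0.0037) in wild type. GRF2 rose by 1.19 ± 0.12 (edgeR adjusted p = 7.4e-06) and GRF4 by 0.97 ± 0.11 (edgeR adjusted p = 1.4e-05) in the line. Without salt 3 were lower in the line, GRF1 (-0.51 ± 0.14, edgeR adjusted p = 0.032), GRF2 (-0.49 ± 0.12, edgeR adjusted p = 0.021) and GRF4 (-0.46 ± 0.11, edgeR adjusted p = 0.016). Of all tested genes 6.58% were lower there. Over the settings run 0 to 4 of the 14-3-3 genes were called without salt, and GRF1 kept its call in 9 of 20 alternatives. Under salt 4 were higher and 1 lower, among them GRF2 (0.49 ± 0.12, edgeR adjusted p = 0.011), GRF7 (0.65 ± 0.16, edgeR adjusted p = 0.012) and GRF6 (-0.45 ± 0.13, edgeR adjusted p = 0.026). Of all tested genes 15.6% were higher and 19.0% lower there, and 0 to 7 of the 14-3-3 genes were called over the settings run. The interaction was called for GRF2 and GRF4, and for 5.88% of all tested genes. For GRF4 that call was kept in 6 of 19 alternatives.

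Other pump regulators moved in both directions. Of 18 tested, 5 rose and 7 fell with salt in wild type, and 8 rose and 6 fell in the line, where 53.8% and 64.8% of all tested genes were called. The PP2C-D phosphatases remove the phosphate from the threonine near the pump's end. PP2C-D5 fell by 1.43 ± 0.13 on the log2 scale in wild type (edgeR adjusted p = 3e-06) and by 1.81 ± 0.13 in the line (edgeR adjusted p = 4.5e-07), whereas PP2C-D4 rose by 1.34 ± 0.12 (edgeR adjusted p = 4.1e-06) and 1.51 ± 0.12 (edgeR adjusted p = 1.3e-06). PP2C-D3 rose by 1.16 ± 0.10 in the line (edgeR adjusted p = 1.9e-06). Without salt 0 regulators were higher and 4 lower in the line, among them PP2C-D1 (-2.52 ± 0.60, edgeR adjusted p = 0.017). Of all tested genes 7.34% were higher and 6.58% lower there.

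TMK1 and TMK4, receptor-like kinases that link auxin to phosphorylation of the pumps, were also among those lower in the untreated line. TMK1 had 41.9, 44.9 and 41.4 FPKM in untreated and 9.84, 9.16 and 14.3 in salt-treated wild type, and 13.6, 12.2 and 16 in the untreated and 6.88, 8.87 and 8.15 in the salt-treated line. The 3 libraries of untreated wild type thus stood above all 9 others. TMK1 was lower in the untreated line (-1.70 ± 0.16, edgeR adjusted p = 0.00024) and fell with salt in wild type (-1.75 ± 0.17, edgeR adjusted p = 5.2e-06). TMK4 was at -0.98 ± 0.15 in the untreated line (edgeR adjusted p = 0.002). Under salt, where 15.6% of all tested genes were higher and 19.0% lower in the line, 2 regulators were higher and 2 lower. Among them were PP2C-D5 (-0.52 ± 0.12, edgeR adjusted p = 0.011), TMK1 (-0.51 ± 0.16, edgeR adjusted p = 0.034) and RIN4, a partner of the pump in immunity (0.85 ± 0.26, edgeR adjusted p = 0.026). TMK1 was called there in 10 of 20 alternatives, with -0.30 without replicate 3 of salt-treated wild type, and RIN4 in 12 of 20, with values from 0.64 to 1.22.

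Pyrophosphate is the fuel of AVP1, and soluble pyrophosphatases (PPA) compete for it. Of 7 tested pyrophosphatase genes beside AVP1, 2 rose and 2 fell with salt in wild type, near the 53.8% of all tested genes called there. In the line 3 rose and 4 fell, where 64.8% of all were called. PPA5 rose by 1.68 ± 0.16 on the log2 scale in wild type (edgeR adjusted p = 5.4e-06) and by 0.99 ± 0.16 in the line (edgeR adjusted p = 0.00019). PPA4 rose by 1.31 ± 0.15 (edgeR adjusted p = 2e-05) and 0.997 ± 0.15 (edgeR adjusted p = 0.00011). The plastid form PPA6 fell by 1.62 ± 0.25 in the line (edgeR adjusted p = 0.00017), and VHP2-2, a relative of AVP1, fell by 1.34 ± 0.34 in wild type (edgeR adjusted p = 0.006). Without salt 1 was higher and 0 lower in the line, PPA5 (0.58 ± 0.16, edgeR adjusted p = 0.031), where 13.9% of all tested genes were called. Under salt 1 was higher and 4 lower, where 34.6% of all tested genes were called. Among them were AVP2, a membrane-bound relative of AVP1 (0.58 ± 0.16, edgeR adjusted p = 0.018), PPA6 (-1.33 ± 0.25, edgeR adjusted p = 0.0043) and VHP2-2 (-1.33 ± 0.37, edgeR adjusted p = 0.019).

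For each member the 3 nearest patterns were sought among 9260 named genes, by the root mean square distance of centred log2 CPM over the 12 libraries. For AHA1 they were LIF2 (0.07), ECT2 (0.09) and ATCNGC6 (0.09), against a spread of AHA1 about its own mean of 0.18. For AHA2, with a spread of 0.35, they were CERK1 (0.12), the chitin receptor kinase, BSK7 (0.14) and LIP1 (0.15). CERK1 had means of 31.2 and 16.6 FPKM in untreated and salt-treated wild type, and 22.9 and 27.1 in the line. For AHA3 (spread 0.45) they were SBT1.7 (0.10), RBL3 (0.13) and MRS2-11 (0.15). For AVP1 (spread 0.56) they were TIC110 (0.12), of the chloroplast import machinery, CPSF100 (0.14) and PDE318 (0.14). For VHA-A2 (spread 0.33) they were PTC52 (0.09), the V-ATPase head gene VHA-B3 (0.11) and PGM1 (0.11), and for VHA-A3 (spread 0.34) VPS18 (0.10), PPOX1 (0.12) and ATCAP1 (0.13). These distances describe the 12 libraries, which share the groups and their depth.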

How the data were processed

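RNA sequencing of 12 leaf libraries was analysed. Per the submitters' processing notes reads went through HISAT2 2.0.1, with bcl2fastq 2.17.1.14 and with cutadapt 1.9.1 also named, on TAIR10. For the counting program, strand and multiply matching reads, the sources used here give nothing. The authors deposited raw counts per gene for 34218 genes, together with FPKM values, which a recalculation from counts, exon length and library totals matched within 0.005. Positions are 1-based on TAIR10. Of the 32548 loci also annotated in TAIR10.1, 32520 had the same chromosome, start and end, the 6 members among them, so bases were read from that genome.

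Counts were tested with edgeR 4.0.16 (R 4.3.3), quasi-likelihood F test, TMM scaling and a mean per group over all 12 libraries. A gene was tested where its FPKM averaged 1 or more (17038 genes), with Benjamini-Hochberg adjustment at 0.05. The SE is the log2 fold change over the root of F. The fit was tested on simulated data. Ratios were compared by exact two-sided permutation of libraries. Same-numbered replicates showed no steady common deviation, so the main fit has no block.

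Named genes are all members and VHA-A1, up to 3 called genes per list and comparison, by smallest adjusted p, and the nearest patterns. AHA11, SUC2 and PYK10 were added in comparisons outside this rule after their values were seen. The members and lists were chosen with earlier results of these data known. Alternatives were DESeq2 1.42.0, limma 3.58.1 on log2(FPKM + 1) and log2(FPKM + 0.1), library totals alone, other filters, a replicate block, a fit of only the 2 groups compared, and leaving out each library. Intervals of counting error do not cover variation between plants.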

Additional observations from a re-analysis of the deposited data

Results flagged for a closer look

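Among the members and listed genes, the salt response of 5 differed between the genotypes by the test of the interaction. This was edgeR's quasi-likelihood test adjusted over all 17038 genes tested, of which 5.88% were called. The 5 were 1 of 6 members, 2 of 11 14-3-3 genes, 1 of 18 regulators and 1 of 7 pyrophosphatases. Of 24 other V-ATPase genes and 4 other AHA genes, 0 were called. AHA2 had an interaction of 1.19 ± 0.24 (edgeR adjusted p = 0.023): it fell in wild type and rose in the TaF5H1 line. TMK1 had 1.20 ± 0.23 (edgeR adjusted p = 0.02), with a fall under salt in wild type from a level that the untreated line did not have. GRF2 had 0.98 ± 0.17 (edgeR adjusted p = 0.015) and GRF4 0.68 ± 0.15 (edgeR adjusted p = 0.03), both 14-3-3 genes that were lower in the untreated line. AVP2, the membrane-bound relative of AVP1, had 0.86 ± 0.22 (edgeR adjusted p = 0.046). The AHA2 call was lost in 8 of the 12 fits that left out a library. Of 19 alternatives, GRF2 was called in 18, TMK1 in 16, GRF4 in 6 and AVP2 in 3.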

How the results depend on the processing

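AVP1's fall in both genotypes, AHA2's fall in wild type and VHA-A2's rise in the line kept direction and call in all 20 alternatives. The salt effects on VHA-A3 over VHA-A2 and AVP1 over the vacuolar subunits a kept theirs in all 12 sets with a library left out. With library totals alone, AHA1's salt change was called (-0.49 and -0.53), AHA2's rise in the line (0.27) and VHA-A3's difference without salt (-0.57) lost their calls, VHA-A3's salt change in the line turned to -0.038 and AHA1's interaction to -0.041, and 8 V-ATPase genes rose in wild type. limma on log2(FPKM + 1) called AHA1 (-0.49 and -0.51) and AHA3 between genotypes under salt (-0.61), lost AHA2 in the line (0.24) and under salt (0.47), turned VHA-A3 in the line (-0.016) and AHA1's interaction (-0.029), and gave 8 V-ATPase genes in wild type and 1528 interactions in all against 1001. limma on log2(FPKM + 0.1) called AHA1 (-0.49 and -0.52), lost AHA2 in the line (0.25), under salt (0.48) and without salt (-0.62) and VHA-A3 without salt (-0.61), turned VHA-A3 in the line (-0.016) and AHA1's interaction (-0.028), and called 7 and 13 V-ATPase genes. DESeq2 called AHA3 with salt (0.53 and 0.52) and 2531 interactions. AHA2 under salt lost its call with a filter of mean FPKM 5 (0.46) and no filter (0.48), which also lost VHA-A3 without salt (-0.65). The fit of only the 2 groups compared called AHA1 (-0.28), AHA3 (0.54) and VHA-A2 (0.36) with salt in wild type and AHA3 without salt (-0.51), lost AHA2 in the line (0.54) and under salt (0.50), and called 4053 genes between genotypes without and 1916 under salt, against 2371 and 5888. The cause was not tested.

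The replicate block gave AHA2 under salt 0.48 and VHA-A3 without salt -0.68, both no longer called, and 644 interactions. It changed no other call on the members, and 14 and 18 V-ATPase genes were called with salt, against 15 and 20. Same-numbered libraries correlated at -0.26 to 0.24 in their deviations over 18 pairs, 4 of them above 0.1. No steady pairing by number was seen, which does not show that same-numbered samples were handled apart.

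With each library left out in turn, the salt changes in wild type ranged from -0.33 to -0.27 for AHA1, 0.48 to 0.57 for AHA3 and 0.31 to 0.38 for VHA-A2, and 8 to 17 V-ATPase genes were called. In the line they ranged from -0.40 to -0.18 for AHA1, 0.40 to 0.73 for AHA2 and 0.15 to 0.68 for AHA3. Between genotypes without salt the ranges were -0.033 (without replicate 3 of the untreated line) to 0.19 for AHA1, -0.76 to -0.60 for AHA2, -0.65 to -0.41 for AHA3, -0.53 to -0.28 for VHA-A2 and -0.80 to -0.46 for VHA-A3, with 1144 to 5071 genes called. Under salt they were 0.35 to 0.71 for AHA2 and -0.87 to -0.37 for AHA3, with 2643 to 9243 genes called. The interaction ranged from -0.11 to 0.12 for AHA1, 1.05 to 1.41 for AHA2, -0.35 to 0.15 for AHA3 and -0.031 to 0.30 for AVP1, with 138 to 6264 genes called. The highest of these 3 counts came without replicate 1 of the salt-treated line. The ratio of AVP1 to the vacuolar subunits a differed between genotypes by 0.19 to 0.29, and the interaction of AHA2 over AHA1 was 0.99 to 1.40. The main fit tested 11 14-3-3 genes, 18 regulators and 7 pyrophosphatases. It called 53.8% of all tested genes with salt in wild type and 64.8% in the line. Over all settings, the called 14-3-3 genes numbered 3 to 9 with salt in wild type and 7 to 9 in the line. The regulators numbered 9 to 13 and 12 to 15, and the pyrophosphatases 3 to 5 and 6 to 7. Between genotypes under salt, 0 to 7 14-3-3 genes, 0 to 8 regulators and 1 to 5 pyrophosphatases were called, where the main fit called 34.6% of all tested genes. With 3 libraries a group, spread between libraries limits these values more than depth does.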

Other observations

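Guard cell markers gave no common direction: with salt 2 of 5 rose and 1 fell in wild type, and 1 rose and 1 fell in the line. Of all tested genes 53.8% and 64.8% were called there. Their summed level was 21.2 to 24.8 FPKM in untreated and 21.96 to 24.9 in salt-treated wild type, and 26.5 to 28.7 in the untreated and 24.1 to 31.5 in the salt-treated line. AHA1 is the pump gene best known from stomatal opening, and in the main fit it had no call with salt. With library totals alone and with limma on FPKM its fall was called in both genotypes.

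The subunit a genes VHA-A1, VHA-A2 and VHA-A3 code for proteins of 817, 821 and 821 residues in RefSeq. VHA-A1 was 62.19% identical to VHA-A2 and 63.22% to VHA-A3 over aligned residues. The proteolipid genes VHA-c1, VHA-c3 and VHA-c5 encode proteins identical in all 164 residues from coding sequences of 85.16% to 89.63% identity, and no 50-base exon word of theirs occurred elsewhere in the genome. VHA-d1 and VHA-d2, neighbours on chromosome 3, shared 3.89% and 3.84% of their words, so their counts are uncertain by the reads from these words.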
